A study of Mus musculus with 20 samples.

Results

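The 9 genes described here mark macrophages in tissue, or the states that macrophages take: Adgre1, Csf1r, Csf1, Cd68, Mrc1, Trem2, Gpnmb, Cd163 and Lyz2. They were taken by symbol from a table of 55822 mouse genes, and each of the 9 symbols was found once. A filter on low counts kept 8 of them for testing, and Cd163 was too low in these libraries to pass it. With puberulic acid, 6 of the 8 tested genes rose and none fell, while of all genes tested 34.2% were called higher and 31.1% lower. Gpnmb and Cd68 rose most and were even across the treated samples, while Adgre1 and Csf1r did not pass the test; without control replicate 4 Adgre1 passed. In a list of 18 general phagocyte genes, 15 rose and 1 fell.

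RNA was measured by bulk sequencing of poly(A) RNA from whole kidneys of mice of the inbred strain C57BL/6J, all males and 8 weeks old. Control mice received phosphate-buffered saline (PBS). The puberulic acid group received 1 mg per day of puberulic acid, a tropolone that certain Penicillium moulds produce, and 2 further groups received 1000 mg per day of a normal or of a toxic lot of Choleste-Help, a dietary supplement. Every group was given 6 daily doses and its kidneys were taken on day 7, after 1 day without dosing, and 5 samples per group were sequenced. Dosing is described as oral in the design text but as gavage or intraperitoneal injection in the protocol, and which mouse had which route is not stated. The comparison of puberulic acid with PBS asks what the compound does to the kidney. The control (chm_0) and puberulic acid (chm_pa) columns of the table were matched to these labels by their names. The names of the other 10 columns, chm_o1000 and chm_x1000, carry the dose of the supplement but not its lot, so their values are shown by column-name set, without a test. The labels number the samples of a group but do not say which animal each came from, so p-values measure the spread between these samples.

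Macrophages are phagocytes that live in the kidney's interstitium or arrive there as monocytes from the blood. Their survival depends on the receptor encoded by Csf1r, whose 2 ligands are the products of Csf1 and Il34. Macrophages take up and digest dying cells, and depending on the signals they receive they make inflammatory mediators, lysosomal proteins or products linked to tissue repair, which is why single genes are read as state markers. Several of these genes are not private to macrophages: epithelial and stromal cells make Csf1, and melanocytes and osteoclasts make Gpnmb.

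The sequence at the start site is shown for the 3 members whose window holds the letters TGANTCA, where N is any base. These letters are a loose form of the core bound by AP-1 factors. The middle base was C in Gpnmb, G in Cd68 and A in Trem2. Csf1, Mrc1 and Lyz2, the tested members whose windows lack these letters, were called higher with puberulic acid just as those 3 were. RefSeq promoter windows (build GRCm38.p6), from 250 bases before to 50 after the start, were matched by symbol for 7 members, namely Csf1, Cd68, Mrc1, Trem2, Gpnmb, Cd163 and Lyz2. Capitals mark matches to TGANTCA and to GAGGAA, the core bound by PU.1, on either strand, so that GAGGAA on the opposite strand reads TTCCTC. Windows are printed 5′ to 3′ on the gene's own strand: Gpnmb is at chr6:49036268-49036567 on the plus strand, Cd68 at chr11:69666121-69666420 on the minus strand and Trem2 at chr17:48346151-48346450 on the plus strand.
Gpnmb: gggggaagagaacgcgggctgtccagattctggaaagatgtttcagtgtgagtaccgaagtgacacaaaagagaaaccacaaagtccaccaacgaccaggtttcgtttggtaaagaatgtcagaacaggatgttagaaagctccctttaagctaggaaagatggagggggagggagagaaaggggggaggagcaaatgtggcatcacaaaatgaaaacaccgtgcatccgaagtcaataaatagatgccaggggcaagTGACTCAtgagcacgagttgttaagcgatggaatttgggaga
Cd68: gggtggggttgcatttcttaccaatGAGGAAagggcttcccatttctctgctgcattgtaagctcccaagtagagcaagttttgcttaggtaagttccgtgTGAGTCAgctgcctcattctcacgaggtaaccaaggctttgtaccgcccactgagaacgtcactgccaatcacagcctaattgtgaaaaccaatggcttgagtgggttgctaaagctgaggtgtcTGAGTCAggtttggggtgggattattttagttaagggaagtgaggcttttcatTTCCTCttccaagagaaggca
Trem2: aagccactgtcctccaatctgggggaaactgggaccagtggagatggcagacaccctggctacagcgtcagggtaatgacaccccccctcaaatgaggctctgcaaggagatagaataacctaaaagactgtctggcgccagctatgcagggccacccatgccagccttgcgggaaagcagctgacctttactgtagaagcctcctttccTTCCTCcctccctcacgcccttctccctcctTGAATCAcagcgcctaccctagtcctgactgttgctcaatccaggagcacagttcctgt
Counting the start as base 1, Gpnmb held TGACTCA from base 9. Cd68 held TGAGTCA from base -149 and base -24, and GAGGAA from base -225 and, on the opposite strand, from base 30. Trem2 held TGAATCA from base -9 and GAGGAA on the opposite strand from base -40. Mrc1 held GAGGAA on the opposite strand, from bases -180, -167 and -35. No match overlapped another. TGANTCA was thus found in 3 of 7 members' windows and in 7.81% of all 32851 windows, and GAGGAA in 3 of 7 and in 28.3%. CACGTG, the E-box of TFE and MITF factors, was in none of the 7 and in 7.15% of all, and TTCNNNGAA, a STAT core, in none of the 7 and in 8.3% of all. These matches describe letters in a window and not binding.

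Levels are given as CPM, the counts of a gene scaled to a common library size with TMM factors (trimmed mean of M-values), and differences as log2 fold changes, puberulic acid against control, from the quasi-likelihood test of edgeR, with p-values adjusted (Benjamini-Hochberg) over the 16266 genes tested. A gene was called at an adjusted p under 0.05. Total estimated counts were between 18409877 and 24705587 per library, and 3 counts in a library are worth 0.158 to 0.195 CPM for controls and 0.0964 to 0.128 CPM for puberulic acid. The compound moved most of the transcriptome: 34.2% of all genes tested were called higher and 31.1% lower, which is the background for every count that follows. These were 5564 and 5058 genes. Scaling by total counts, with no TMM factor, called 9179 higher and 2526 lower, and the median log2 fold change of all genes moved from 0.05 to 0.56. Mitochondrially encoded transcripts held 18.8% to 22.2% of control counts and 10.5% to 13.8% of those with puberulic acid. Kidney tubule markers, which identify the tissue, summed to 30610 to 43430 CPM in controls.

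The 6 called members are Csf1, Cd68, Mrc1, Trem2, Gpnmb and Lyz2, or 6 of 8 tested beside 34.2% of all genes. No member was called lower, beside 31.1% of all genes. Their median log2 fold change over the 8 tested was 2.46, beside 0.05 for all genes. All 5 puberulic acid samples lay above the highest control for Csf1, Cd68, Mrc1 and Gpnmb, which is 4 of the 8 tested members beside 26.1% of all genes. Whole kidney RNA cannot tell apart more macrophages from more RNA per cell, nor RNA of macrophages from RNA of other cells that express the same gene.

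**Figure D1:**
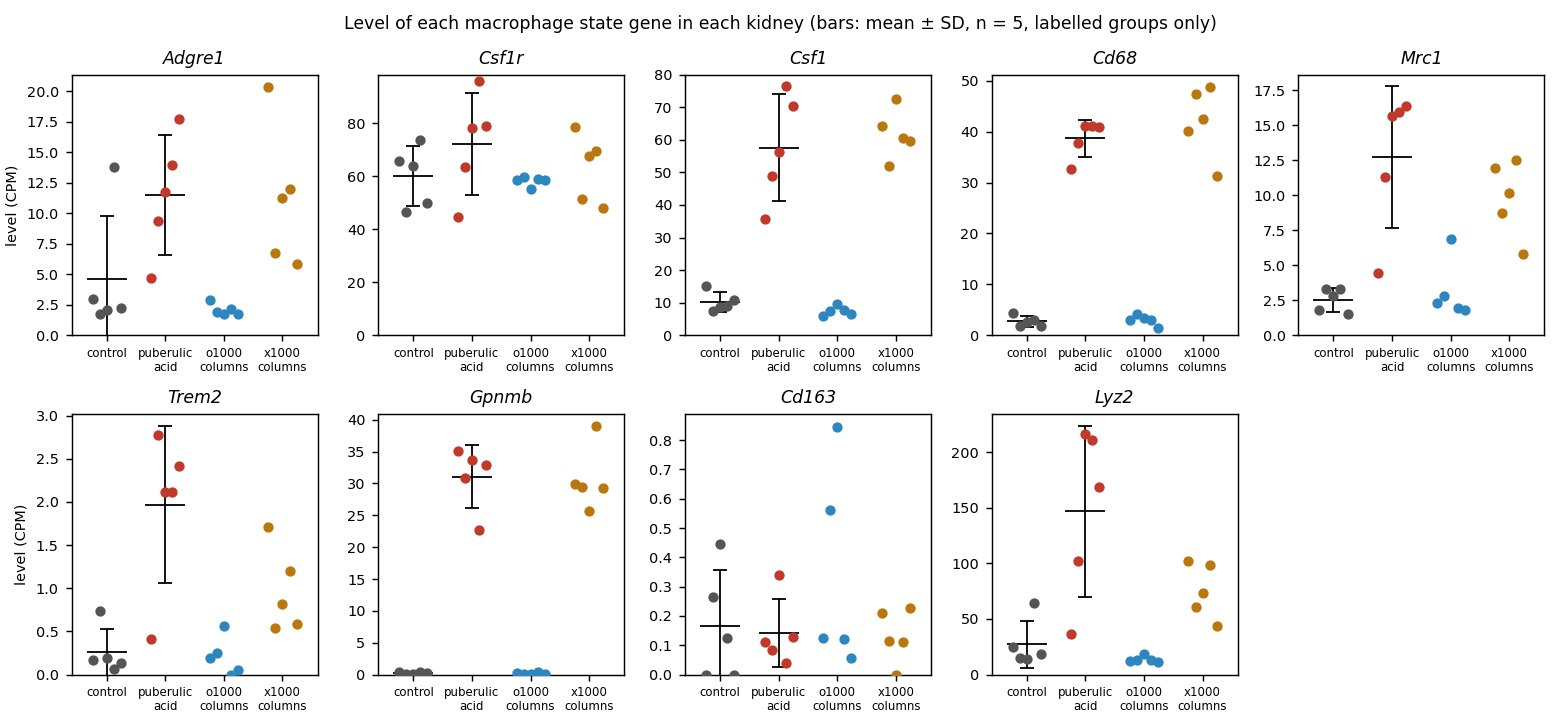
Level in CPM (vertical axes, linear and different for each gene) of the 9 macrophage state genes in each kidney, for control, puberulic acid and the chm_o1000 and chm_x1000 columns. Points are samples, and black bars are the mean ± SD (n = 5) of the labelled groups, ending at 0 where the SD exceeds the mean. Gpnmb and Cd68 form tight groups of puberulic acid samples far above the controls, control replicate 4 stands alone at 13.8 CPM for Adgre1, and Cd163 is low everywhere.

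Adgre1 encodes F4/80, the surface protein most used to recognise mouse macrophages. In control replicates 1 to 5 it was at 2.97, 1.74, 2.10, 13.8 and 2.27 CPM, and in puberulic acid replicates 1 to 5 at 4.71, 9.37, 11.8, 14.0 and 17.8 CPM. Control replicate 4 was high, above 3 of the 5 treated samples, and the other 4 controls lay below every treated sample. Control and puberulic acid means were 4.58 ± 5.19 and 11.5 ± 4.90 CPM (SD, n = 5 each). The log2 fold change was 1.33 ± 0.57 (SE), with an edgeR adjusted p of 0.0564, so Adgre1 was not called. Leaving out control replicate 4 gave a log2 fold change of 2.33 with an adjusted p of 0.00021, and leaving out puberulic acid replicate 1 gave 1.51 with an adjusted p of 0.03. Total-count scaling gave 1.85 with an adjusted p of 0.0126.

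Csf1r encodes the receptor tyrosine kinase for the CSF1 and IL-34 proteins and is found on nearly all cells of the macrophage lineage. Its values were 65.5, 46.6, 63.7, 73.6 and 50 CPM in control replicates 1 to 5. They were 44.5, 63.5, 78.2, 95.7 and 78.7 CPM in puberulic acid replicates 1 to 5. The groups overlapped over most of their range, and puberulic acid replicate 1 had the lowest value of all 10 samples. Means of 59.9 ± 11.3 and 72.1 ± 19.2 CPM (SD, n = 5 each) gave a log2 fold change of 0.27 ± 0.19 (SE) with an edgeR adjusted p of 0.234. The call depended on scaling and on 1 sample: the adjusted p was 0.00335 with total counts, at a log2 fold change of 0.78, and 0.0452 without puberulic acid replicate 1, at 0.38.

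Csf1, the secreted growth factor that Csf1r binds, rose. Its values were 15.1, 7.49, 8.78, 8.85 and 11 CPM in control replicates 1 to 5 and 35.8, 49.0, 56.2, 76.5 and 70.4 CPM in puberulic acid replicates 1 to 5. Every treated sample was above every control, and replicate 1 was the lowest treated sample. The log2 fold change was 2.49 ± 0.24 (SE), with an edgeR adjusted p of 2.58e-06. Il34, the second ligand, which tubule epithelium makes, rose as well, from 19.5 ± 7.29 to 55.5 ± 6.93 CPM (SD, n = 5 each), a log2 fold change of 1.51 ± 0.23 (SE) with an adjusted p of 0.000117. Both ligands of the receptor were therefore called higher while the receptor was not. The difference between ligand and receptor was also tested within samples: against Csf1r, the log2 ratio of Csf1 was 2.18 higher with puberulic acid (exact two-sided permutation test, adjusted p = 0.0143).

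Cd68 encodes a heavily glycosylated protein of lysosomes and endosomes that is used to count phagocytes in sections. In control replicates 1 to 5 it was at 4.34, 1.74, 2.67, 2.93 and 1.88 CPM, and in puberulic acid replicates 1 to 5 at 32.7, 37.7, 41.0, 41.2 and 40.9 CPM. The treated samples were alike, and the lowest of them was far above the highest control. Means of 2.71 ± 1.04 and 38.7 ± 3.65 CPM (SD, n = 5 each) gave a log2 fold change of 3.83 ± 0.22 (SE) with an edgeR adjusted p of 5.89e-08. Its promoter window is the one above with 2 TGAGTCA matches.

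Gpnmb encodes a transmembrane glycoprotein that is high in lysosome-laden and lipid-laden macrophages. Counts in the controls were between 1 and 8 per library, and levels were 0.457, 0.0527, 0.127, 0.436 and 0.260 CPM in replicates 1 to 5. With puberulic acid, counts ran from 556 to 1024 and levels were 35.1, 30.8, 33.7, 22.7 and 32.9 CPM in replicates 1 to 5. Gpnmb was near the limit of detection in every control and plainly present in every treated sample, with replicate 1 the highest. Means of 0.267 ± 0.180 and 31.0 ± 4.94 CPM (SD, n = 5 each) gave the largest change of the 8 tested members, a log2 fold change of 6.85 ± 0.31 (SE) with an edgeR adjusted p of 1.44e-08. The ratio of the summed levels was 118 (95% interval 78.2 to 189, counting error only).

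Lyz2 encodes lysozyme, an enzyme that digests bacterial cell walls and is made by macrophages, monocytes and neutrophils. Control replicates 1 to 5 had 24.9, 15.1, 13.9, 64.4 and 18.4 CPM. Puberulic acid replicates 1 to 5 had 36.1, 102, 216, 211 and 169 CPM. As for Adgre1, control replicate 4 was high and puberulic acid replicate 1 low, and these 2 samples made the groups overlap. The log2 fold change was 2.43 ± 0.53 (SE) with an edgeR adjusted p of 0.0016, and it was 3.01 without control replicate 4. The near-identical gene Lyz1, whose reads the authors' counting could share with Lyz2, summed to 11 counts over the controls and 66 over the treated samples, too low to be tested.

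Mrc1 encodes the mannose receptor CD206, an endocytic receptor used as a marker of alternatively activated and of resident macrophages. Control replicates 1 to 5 were at 1.77, 3.32, 2.80, 3.30 and 1.49 CPM, and puberulic acid replicates 1 to 5 at 4.45, 11.3, 15.6, 15.9 and 16.4 CPM. The treated samples were all above the controls, and replicate 1 was close to them. The log2 fold change was 2.32 ± 0.36 (SE), with an edgeR adjusted p of 0.000122.

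Trem2 encodes a receptor for lipids and cell debris that signals through the adaptor encoded by Tyrobp. Its levels were low in all samples: 0.171, 0.738, 0.191, 0.0623 and 0.130 CPM in control replicates 1 to 5, and 0.408, 2.77, 2.12, 2.12 and 2.41 CPM in puberulic acid replicates 1 to 5. Puberulic acid replicate 1 lay within the range of the controls, below control replicate 2, and the other 4 treated samples were above all controls. Control libraries held 1 to 14 counts of it and the treated ones 11 to 75. The log2 fold change was 2.84 ± 0.61 (SE) with an edgeR adjusted p of 0.00148, and it was 3.75 without control replicate 2 (adjusted p = 0.000327). Trem2 was not tested when a gene needed 1 CPM in 5 or more samples. Tyrobp rose by 2.24 ± 0.36 (SE; adjusted p = 0.000176) on the log2 scale, from 5.56 ± 2.14 to 26.3 ± 11.0 CPM (SD, n = 5 each).

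Cd163 encodes the scavenger receptor for haemoglobin and haptoglobin complexes and marks resident and anti-inflammatory macrophages. It stayed at the floor: control replicates 1 to 5 held 0, 5, 7, 2 and 0 counts and puberulic acid replicates 1 to 5 held 3, 2, 8, 1 and 4. The ratio of summed levels, puberulic acid against control, was 0.829 (95% interval 0.389 to 1.80, counting error only), so that no difference was detectable at this depth. The highest count of any of the 20 columns was 12.

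**Figure D2:**
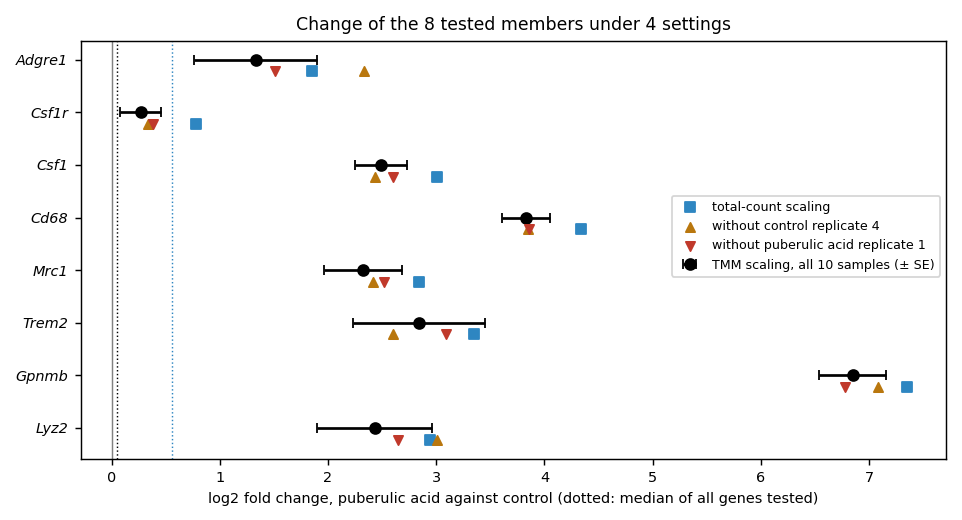
Log2 fold change (horizontal axis), puberulic acid against control, of the 8 tested members. Black points with bars are the TMM fit on all 10 samples ± SE, squares the total-count scaling, and triangles the fits without control replicate 4 or without puberulic acid replicate 1; dotted lines are the medians of all genes, 0.05 and 0.56. Csf1r lies nearest the medians of all genes, and Adgre1 moves from 1.33 to 2.33 without control replicate 4.

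Divided by transcript length (CPM per kilobase), the order of the members' levels changed between the groups. In controls, the medians were highest for Lyz2 at 14.0 and Csf1r at 13.6, whose ranges overlapped. Cd68 at 2.17, Csf1 at 2.12 and Adgre1 at 0.702 came next, with ranges that overlapped each other's neighbour, and then Mrc1 at 0.521, Trem2 at 0.157, Gpnmb at 0.0702 and Cd163 at 0.0281, likewise overlapping. With puberulic acid, Lyz2 led at 128, with a range that reached down to Cd68, second at 33.2, which was above the whole range of Csf1r at 16.6. Csf1 at 13.5 overlapped with Csf1r and with Gpnmb at 8.89, which had passed Adgre1, at 3.64, by its whole range. Mrc1 at 2.91 and Trem2 at 1.95 overlapped in turn, and Cd163 was last at 0.0251.

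The members did not rise in one proportion. Within each sample, the log2 ratio of each member to Adgre1 was taken from CPM plus 0.5, and the groups were compared by an exact two-sided permutation test that enumerates every assignment of the 10 samples and can go no lower than 0.00794, with adjustment over the 9 ratios. The ratio of Cd68 to Adgre1 was -0.30 ± 1.02 in controls and 1.82 ± 0.56 with puberulic acid (SD, n = 5 each), a difference of 2.12 (exact p = 0.00794, adjusted p = 0.0357). For Gpnmb the difference was 3.84, at the same p-values, and all 5 treated samples were above all controls for both ratios. The size for Gpnmb depends on the added 0.5 CPM, since every control was below that level: with 0.1 CPM added it was 4.88 (exact adjusted p = 0.0357). For Lyz2 it was 0.86 (exact p = 0.0159, adjusted p = 0.0476). The call of Lyz2 was lost without control replicate 2 or 3 (exact adjusted p = 0.0714 for each) or 5 (0.0536), and with a pseudocount of 0.1 CPM (0.0893).

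Csf1 gained 0.89 and Csf1r lost 1.30 against Adgre1, and neither passed the adjustment (exact p = 0.0317 and 0.0397, adjusted p = 0.0714 for each). Mrc1 with 0.51, Trem2 with 0.10 and Cd163 with -1.57 did not pass either, with exact adjusted p of 0.469, 0.96 and 0.0833. For Cd163 and for Trem2 in the controls the ratio is largely set by the added 0.5 CPM, since their levels were near or below it. With 0.1 CPM added the difference for Trem2 was 0.89 (exact adjusted p = 0.381), so no size is read from it. The count of ratios that passed was 5 of 9 without control replicate 4, with Csf1r (a difference of -1.70, exact adjusted p = 0.0238) and Cd163 (-2.06, 0.0357) added. Csf1 passed without control replicate 1 (1.06, 0.0357) or 5 (1.03, 0.0476), and its difference was smaller without control replicate 4 (0.37, 0.0952). With Cd68 as the reference in place of Adgre1, all 9 differences passed, and Gpnmb was the one with a positive difference.

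Control replicate 4 lay toward the treated samples for Adgre1 and Lyz2, and puberulic acid replicate 1 toward the controls in several members. Their values in the gene lists are therefore given. Of the 8 tested members, control replicate 4 was the highest control for 3 (37.5%). Control replicate 4 had the highest control value for 9 of 18 general phagocyte genes (50%) and for 16.7% of all genes tested. It was at least 2-fold over the median of the other controls for Itgam, Fcer1g, Aif1, C1qc and Ms4a7, or 27.8% of that list, beside 2.53% of all genes. It was the highest control for 1 of 10 monocyte genes, 3 of 17 TREM2 and lipid genes and 0 of 6 resident macrophage genes. Its 9 macrophage markers, 3 of them members, summed to 234 CPM, beside a median of 170.0 CPM in the other controls, and its 8 tubule markers to 42200 CPM, beside 41130.

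Puberulic acid replicate 1 had the lowest treated value for 7 of the 8 tested members and for 17 of the 18 phagocyte genes, beside 53.6% of all genes called higher. Against the median of the other 4 treated samples it held 18% of the Trem2, 19.0% of the Lyz2, 28.2% of the Mrc1 and 36.6% of the Adgre1. It held 56.5% of the Csf1, 56.8% of the Csf1r, 79.8% of the Cd68 and 110% of the Gpnmb. Within 1 kidney, then, Gpnmb and Cd68 were at or near the level of the group while Lyz2, Trem2 and Mrc1 were not. Its macrophage markers summed to 223 CPM, below control replicate 4, and the lowest of the other treated samples had 365. That sum includes Mertk, a receptor for dying cells, which was at 46.0 to 55.5 CPM in controls and 14.5 to 24.4 CPM with puberulic acid. Cd68, Fcgr1, C1qa, C1qb and C1qc were above the highest control in all 5 treated samples, replicate 1 included. That is 5 of the 9 markers, beside 26.1% of all genes, and Adgre1 and Csf1r overlapped the controls. The tubule markers of replicate 1 summed to 12590 CPM, the highest of the treated group. The part of this sample's cell content in the members' values was not tested.

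**Figure D3:**
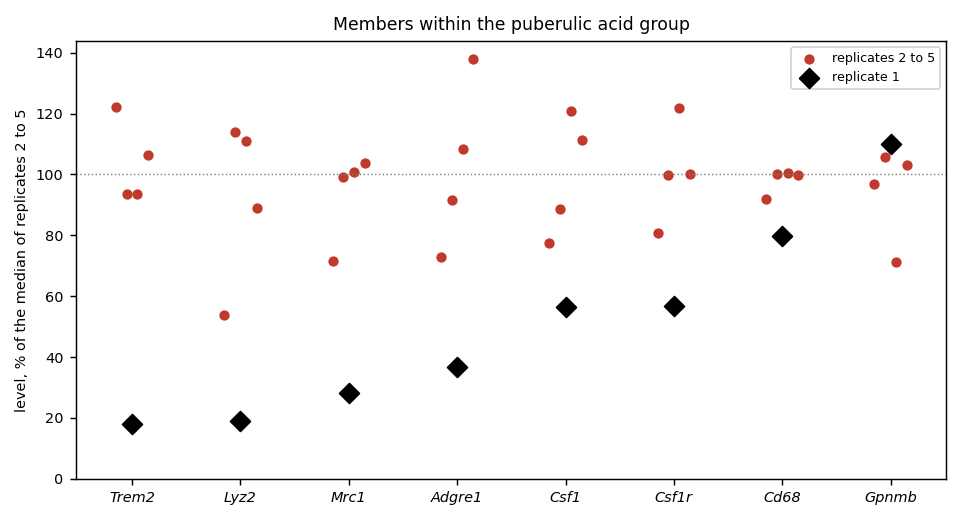
Level of 8 members in each puberulic acid sample, as a percentage of the median of replicates 2 to 5 (vertical axis, linear). Black diamonds are replicate 1 and red points are replicates 2 to 5; Cd163, at the floor, is left out. Replicate 1 runs from 18% for Trem2 to 110% for Gpnmb.

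Genes around the members were read in lists by role. Of 10 other genes of the colony-stimulating factor system, 7 were tested and 6 rose, with a median log2 fold change of 1.51. Besides Il34, they included Csf2rb, the shared beta chain of the GM-CSF and IL-3 receptors, at 3.31 ± 0.37 (SE; edgeR adjusted p = 8.58e-06), whose near-identical copy Csf2rb2 could share reads. Spi1, which encodes the macrophage lineage factor PU.1, rose by 2.37 ± 0.42 (SE; adjusted p = 0.000329), from 4.90 ± 2.90 to 25.3 ± 10.5 CPM (SD, n = 5 each). Irf8, a factor of monocyte development, did not pass.

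All 18 general phagocyte genes were tested, and 15 rose and 1 fell, with a median log2 fold change of 2.39. Fcgr1, a high-affinity antibody receptor, had a log2 fold change (± SE) of 4.03 ± 0.68 (adjusted p = 0.000248). Itgam, the integrin chain CD11b, had 3.78 ± 0.53 (SE; adjusted p = 5.46e-05). The one gene that fell was Mertk, a receptor for dying cells, from 51.4 ± 4.02 to 21.0 ± 3.76 CPM (SD, n = 5 each), a log2 fold change (± SE) of -1.29 ± 0.13 (adjusted p = 3.63e-06). The other 2 did not pass. Ptprc, the leukocyte antigen CD45, rose by 1.92 ± 0.31 (SE; adjusted p = 0.000167).

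Of 10 genes of blood monocytes, 9 rose and 1 fell, with a median of 1.86. Ccr2, the receptor by which monocytes leave the marrow, rose by 3.07 ± 0.44 (SE; edgeR adjusted p = 6.69e-05) on the log2 scale, from 5.33 ± 4.02 to 45.2 ± 16.2 CPM (SD, n = 5 each). Ace, which the proximal tubule also makes, fell by 1.96 (adjusted p = 2.03e-06). The count of 9 was 4 without puberulic acid replicate 4, 5 without control replicate 2 and 5 without control replicate 3. Among 12 genes of resident macrophages, 6 were tested: Hmox1 and F13a1 rose, Maf and Cd81 fell, Folr2 and Stab1 did not pass, and the median was 0.06. Lyve1, Timd4, Cd209f, Vsig4, Cd5l and Marco were, like Cd163, too low to be tested. In controls, Maf was at 186.5 ± 32.1 and Cd81 at 318.2 ± 43.4 CPM (SD, n = 5 each), beside a mean of 4.58 CPM for Adgre1. Which cells hold the Maf and Cd81 RNA was not tested. Hmox1, the haem-degrading enzyme, rose by 1.96 ± 0.25 (SE; adjusted p = 2.87e-05), and Maf fell by 1.59 (adjusted p = 1.63e-05). The lower value of Cd81, a log2 fold change of -0.30 (adjusted p = 0.0193), had the other sign with total-count scaling, at 0.21 (adjusted p = 0.1).

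Genes linked to TREM2 signalling and lipid handling went both ways: of 18, 17 were tested, 11 rose and 3 fell, with a median of 1.67. Msr1, a scavenger receptor for modified lipoproteins, rose by 5.67 ± 0.55 (SE; edgeR adjusted p = 2.99e-06) on the log2 scale, and Itgax, the integrin chain CD11c, by 3.83 ± 0.47 (SE; adjusted p = 2.12e-05). Lpl, lipoprotein lipase, fell from 1695 ± 323 to 196 ± 60.1 CPM (SD, n = 5 each), a log2 fold change (± SE) of -3.11 ± 0.23 (adjusted p = 3.61e-07). Lipa, the lysosomal acid lipase, fell by 1.33 (adjusted p = 1.38e-05), and Cd63 was the third that fell. With total-count scaling 2 genes of the list were called lower, Lpl and Lipa, and Cd63 was not. Apoe, a lipid carrier, did not pass, at 0.74 ± 0.38 (SE; adjusted p = 0.105), but did with total-count scaling, at 1.25 (adjusted p = 0.0113). Spp1, osteopontin, which injured tubule cells also make, rose from 674 ± 182 to 15000 ± 2777 CPM (SD, n = 5 each), a log2 fold change (± SE) of 4.48 ± 0.21 (adjusted p = 1.67e-08).

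In both activation lists most of the tested genes were called higher, beside 34.2% of all genes. Of 12 genes of alternative activation, 8 were tested, 7 rose and Pparg did not pass, with a median of 2.90. Ccl17, a chemokine, held 0 to 2 counts in each control, 6 in all, and 1672 in all with puberulic acid (edgeR adjusted p = 2.14e-06). The ratio of its summed levels was 179.6, with a 95% interval of 82.4 to 490.2 that covers counting error only. Chil3, a chitinase-like protein with the near-identical copy Chil4, rose by 5.08 ± 0.59 (SE; edgeR adjusted p = 1.36e-05) on the log2 scale. Of 12 genes of classical activation, 8 were tested and all 8 rose, with a median of 2.83. All 5 treated samples lay above every control for 4 of these 8 and 7 of the 8 alternative ones, beside 26.1% of all genes. With 1 sample left out, which also changed the genes tested, the classical count ranged from 6 to 10. Il6, an inflammatory cytokine, was at 0 counts in every control and at 27 to 124 with puberulic acid, at least 14.2-fold higher against a floor of 3 counts per library. Ptgs2, an inducible cyclooxygenase, rose by 5.56 ± 0.49 (SE; adjusted p = 1.52e-06). Trem1, the inflammatory relative of Trem2, was also at 0 counts in every control, and was at least 19.6-fold higher with puberulic acid.

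Lysosomal genes were called in both directions. Of 16 genes of lysosomes and of the TFE and MITF factors that control them, 4 rose (Gla, Tfe3, Hexa and Sqstm1), 7 fell and 5 did not pass, with a median of -0.04, beside 34.2% higher and 31.1% lower among all genes. Gla, an alpha-galactosidase, rose by 1.03 ± 0.17 (SE; edgeR adjusted p = 0.00022) and the factor Tfe3 by 0.71 ± 0.08 (SE; adjusted p = 8.57e-06). Neu1, a sialidase, fell by 1.45 (adjusted p = 4.38e-06). With total-count scaling, 9 of the 16 were called higher and 5 lower.

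Among 13 relatives of the members by family or function, 8 were tested, 6 rose and none fell, with a median of 1.57.

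**Figure D4:**
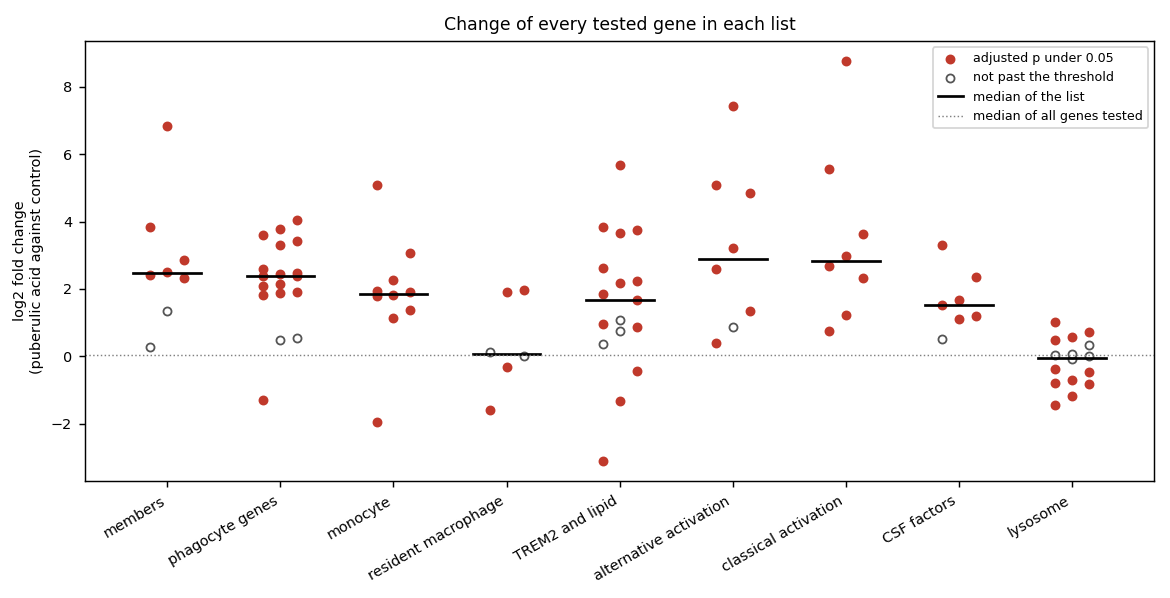
Log2 fold change (vertical axis), puberulic acid against control, of every tested gene in 9 lists (horizontal axis). Filled points passed an adjusted p of 0.05, open points did not, bars are list medians and the dotted line is the median of all genes, 0.05. Medians of the members, phagocyte and activation lists lie above 2, and those of the resident macrophage and lysosome lists near 0.

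Markers of other cells also differed between the groups, and their part in the members' values was not tested. The 9 macrophage markers summed to 154 to 234 CPM in controls and 223 to 631 CPM with puberulic acid, with 5 of 9 called higher and 1, Mertk, lower. The 6 fibroblast and mural markers summed to 94.7 to 153 and 325 to 1070 CPM, with 5 of 6 higher. The 8 tubule markers summed to 8532 to 12590 CPM with puberulic acid, and 7 of 8 were lower.

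Of 10 neutrophil markers, which matter for Lyz2, 3 were tested and 2 rose, the list summed to 0.949 to 2.24 and 3.79 to 6.99 CPM, and Ly6g, Mpo, Ngp and Camp were at or under 3 counts in all 10 samples. Dendritic cell markers, which matter for Csf1r and Mrc1, had 6 of 8 higher, with sums of 10.3 to 18.4 and 21.8 to 32.2 CPM. T and NK cell markers had 4 of 8 higher, with sums of 3.83 to 8.73 and 8.14 to 20.2 CPM, and of 6 B cell markers 2 were tested and neither was called, with sums of 2.90 to 4.71 and 2.43 to 4.89 CPM. Melanocyte markers, which matter for Gpnmb, summed to 0.896 to 1.37 and 0.668 to 1.74 CPM, the 1 tested of 5 was not called, and Tyrp1 was at or under 3 counts in all 10 samples. Mast cell markers summed to at most 0.125 and 0.296 CPM. Hepatocyte markers summed to 139 to 210 and 88.6 to 140 CPM, with 1 of 4 tested higher and 3 lower. Of 5 podocyte and 5 endothelial markers, 1 each was lower, with podocyte sums of 227 to 495 and 109 to 437 CPM and endothelial sums of 160.1 to 251.8 and 82.9 to 219 CPM.

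In the chm_o1000 columns the members' ranges overlapped those of the PBS controls. None of the 8 tested members had all 5 of these columns above the highest control, beside 0.922% of all genes. Medians (and ranges) were 1.93 (1.74 to 2.87) CPM for Adgre1, 58.7 (55.3 to 59.5) for Csf1r, 7.30 (5.80 to 9.66) for Csf1, 3.00 (1.45 to 4.12) for Cd68, 0.125 (0.0581 to 0.361) for Gpnmb and 12.7 (11.7 to 18.2) for Lyz2. Mrc1 had a median of 2.31 CPM and a single column above all controls, at 6.84. Trem2 was at 0 to 0.564 and Cd163 at 0.0581 to 0.846 CPM, with 2 columns of Cd163 above the highest control. Below the lowest control lay 4 of the 5 columns for Lyz2, 3 for Csf1, 2 for Trem2 and 1 for Cd68.

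The chm_x1000 columns had high Csf1, Cd68, Mrc1 and Gpnmb: for these 4 of the 8 tested members all 5 columns were above the highest control, beside 27.2% of all genes. Gpnmb had a median of 29.5 CPM (25.6 to 39.0), Cd68 42.5 (31.3 to 48.8), Csf1 60.7 (52.0 to 72.5) and Mrc1 10.1 (5.79 to 12.5), ranges that lay across those of puberulic acid. Csf1r had a median of 67.7 CPM (47.9 to 78.6) and Adgre1 11.3 (5.88 to 20.3), each with 1 of 5 columns above the highest control. Lyz2 was at 73.0 CPM (43.3 to 102) and Trem2 at 0.814 (0.538 to 1.71), beside puberulic acid medians of 169 and 2.12 CPM. Cd163 was at 0 to 0.226 CPM. No test was made of these columns, and the doses of the supplement and of the compound differ.

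Of the neighbouring genes, Il34 was at 18.5 to 32.6 CPM in the chm_o1000 columns and 49.2 to 63.2 in the chm_x1000 columns. Spi1 was at 2.16 to 3.74 and 9.85 to 23.1 CPM, and Mertk, the one phagocyte gene that fell with puberulic acid, at 40.5 to 56.0 and 24.4 to 27.3. Of the 18 phagocyte genes, 12 had all 5 chm_x1000 columns above the highest control, beside 27.2% of all genes, and none had all 5 chm_o1000 columns there, beside 0.922%.

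The genes whose pattern over the 20 columns was most like each member's were found by Pearson's r of log2(CPM + 1) among 13163 genes. It is a description without a test, since the columns share their group, their scaling and their depth. For Gpnmb they were F2rl1 and Dpysl3 (r = 0.995 for both), for Cd68 Litaf (0.99) and Ptp4a1 (0.989) and for Csf1 Icam1 (0.988) and Relb (0.984). For Lyz2 they were Ncf1, a subunit of the phagocyte oxidase (0.987), and Spi1 (0.986), for Adgre1 Spn (0.963) and C3ar1 (0.955), and for Mrc1 Htra3 (0.966) and Anxa1 (0.963). Csf1r was most like Ptpn6 (0.897) and Fcgr4 (0.845). The likeness of Trem2 and Cd163 was not computed, since their mean was under 1 CPM.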

How the data were processed

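Poly(A) RNA of 20 mouse kidney samples was sequenced, 5 per labelled group. The authors deposited 1 table of estimated counts per gene, not normalized. The submitters' processing notes name fastp 0.22.0, FastQC 0.12.1, MultiQC 1.28, Salmon 1.10.3, DESeq2 and the build GRCm39, with no role or order, and no coordinates from that build are used. Libraries were directional, per the labels' protocols. Gene identifiers without version were matched to symbols for 51344 of 55822 genes, and transcript lengths came from GENCODE M21 (the longest principal transcript).

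Columns were matched to samples by name. Estimated counts were rounded, filtered with filterByExpr and scaled with TMM factors. The 5 control and 5 puberulic acid samples were tested with glmQLFit and glmQLFTest, robust off, in edgeR 4.0.16 (limma 3.58.1, R 4.3.3). Standard errors are the log2 fold change over the square root of F. Supplement columns were scaled against the same reference column. Pairs of replicates differed by more than counting error (chi-square per degree of freedom of 9.42 or more), so none was a duplicate. Depth intervals cover counting error only, since no molecular identifiers are stated. numpy 2.4.6, pandas 2.3.3, scipy 1.17.1 and matplotlib 3.10.9 were used.

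The members and lists were chosen with earlier results of these data known. Members were named, and in each list up to 2 called genes per direction with the largest log2 fold change and a mean of at least 1 CPM over the 10 samples. Il34, Tyrobp, Lyz1, Ptprc, Itgam, Apoe and Spp1 were named whatever their values, and for each member with a mean of at least 1 CPM the 2 genes most like it. One further gene of the set, and some others that these rules name, are not reported here, although list counts and adjustments include them. Other genes named in small counts or for control replicate 4 were chosen after their values were seen. Alternatives were other scalings (RLE, upper quartile, total counts), filters, DESeq2 1.42.0, a robust fit, unrounded counts, a replicate block, leaving out mitochondrial and the 10 most abundant genes, and leaving out each sample. Leaving out control replicate 4 and puberulic acid replicate 1 together was chosen after seeing the data. For the ratios, alternatives were other reference genes, a pseudocount of 0.1 and total counts, and for likeness a pseudocount of 0.1 and a minimum of 5 CPM.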

Additional observations from a re-analysis of the deposited data

Results flagged for a closer look

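In groups of 5 samples, 34 sets of member levels and ratios were searched for 1 sample far from the rest, and 8 held one. The limit used gives about 1 in 20 by chance for independent, normally spread values. The ratios share the Adgre1 values of their samples, so the 8 cannot be set against that rate. In control replicate 4, Adgre1 at 13.8 CPM and Lyz2 at 64.4 CPM stood above the other 4 controls. The log2 ratios to Adgre1 of the same sample stood below the others for Csf1r at 2.37, Csf1 at -0.62, Cd68 at -2.06 and Gpnmb at -3.94, and all 4 ratios share its Adgre1 value. For Trem2, control replicate 2 stood high at 0.738 CPM and puberulic acid replicate 1 stood low at 0.408 CPM, so that these samples crossed.

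The chm_x1000 columns, which entered no test, had 4 of the 8 tested members (Csf1, Cd68, Mrc1 and Gpnmb) above the highest control in all 5 columns, beside 27.2% of all genes.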

How the results depend on the processing

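Csf1, Cd68, Mrc1, Gpnmb and Lyz2 were called higher under all 21 alternatives, and Trem2 under the 20 that tested it. Adgre1 was called in 6 of 21, among them the replicate block (log2 fold change 1.68, adjusted p = 0.0148) and upper-quartile scaling (1.44, 0.0426). Csf1r was called in 3 of 21. Without control replicate 4 and puberulic acid replicate 1 together, chosen after seeing the data, Adgre1 was at 2.53 (7.51e-06) and Csf1r at 0.48 (0.0159). The same-numbered samples of the groups did not deviate together (mean r of -0.036), so their numbers do not pair them.

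Total-count scaling called 9179 genes higher and 2526 lower, and 9 lysosomal genes higher. Resident macrophage genes called higher fell to 1 under the filter of 1 CPM, and those called lower to 1 under upper-quartile scaling, total counts and no filter. Monocyte genes called higher ranged from 4 to 9 when 1 sample was left out. The number of ratios that passed was 8 against Csf1r, 9 against Cd68, and 0 with the replicate block, whose smallest p is 0.0625; leaving out 1 sample gave 2 to 5 of 9. Against Cd68, ratio differences changed sign for Csf1 (-1.24), Mrc1 (-1.61), Trem2 (-2.02) and Lyz2 (-1.26). The ratio of Trem2 also changed sign with total counts (-0.092) and when 1 sample was left out (as low as -0.47). The sign changes against Cd68 follow from the change of reference, since Cd68 itself gained 2.12 against Adgre1. The cause of the Trem2 sign changes with total counts or with 1 sample left out was not tested. With a pseudocount of 0.1, 7 of the 14 most-alike genes were shared.

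Depth limits Cd163, Trem2 and Gpnmb in controls, where 3 counts are worth up to 0.195 CPM. Bulk RNA does not show which cells hold the transcripts, the dosing route of each mouse is not stated, and the lots of the supplement columns are not named in the table.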
